A study of Mus musculus with 18 samples.

Results

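The liver lobule is divided into zones, and Wnt signals released by the endothelium of the central vein set the gene program of the hepatocytes that lie next to it. In these pericentral cells, Wnt ligands bound to Frizzled and LRP receptors stabilize beta-catenin, which together with TCF/LEF factors switches on target genes, several of which encode feedback regulators of the same pathway. R-spondins strengthen the signal by acting through LGR receptors on the membrane ligases RNF43 and ZNRF3, which otherwise remove Frizzled from the cell surface. Here the RNA of 8 genes of this program, *Axin2*, *Nkd1*, *Rnf43*, *Znrf3*, *Lgr5*, *Tbx3*, *Rhbg* and *Lect2*, was followed in liver during exposure to asparaginase (ASNase), an enzyme drug that depletes asparagine and glutamine from blood. The genes were picked by symbol, and all 8 were found among the 37303 genes of the expression table.

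RNA-Seq of poly-A RNA was carried out on livers of 18 mice on the C57BL/6J background, in 6 groups of 3. Wild type mice (WT), mice deleted throughout the body for *Gcn2* (*Gcn2*-/-), which encodes the kinase that phosphorylates eIF2 when amino acids run short, and mice deleted throughout the body for *Atf4* (*Atf4*-/-), which encodes a transcription factor translated in response, received ASNase at 3 IU per gram body weight or the same volume of PBS. Every mouse was injected once daily on 8 days, and tissue was taken 7.5 h after the last injection. Ages were 8 to 12 weeks by 1 label and 8 to 16 weeks by another, and males made up 1 of 3 mice in WT PBS, *Gcn2*-/- PBS and *Gcn2*-/- ASNase and 2 of 3 in WT ASNase, *Atf4*-/- PBS and *Atf4*-/- ASNase.

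Each level below is a single FPKM, a fragment count scaled to transcript length and library size, that Cuffdiff computed for a group from its 3 livers together, and the range in parentheses is Cuffdiff's own interval. Nothing was available per mouse, so no SD, no test over mice and no p-value is given, and differences between groups lack a check by replicates. The intervals were wide: for genes over 3 FPKM, the upper bound lay a median of 51.3% to 54.2% above the value, depending on the group. A difference between groups is given on the scale log2(FPKM + 0.1), which understates the change of low genes, and its error combines those of both values, with the error of a value taken as 1 step when its upper bound lies 2 steps away. A gene was called in a comparison when at least 1 group was over 3 FPKM, the log2 difference was over 1.5 in size and the intervals were separate, and only such a gene is said to rise or fall.

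The 8 genes fell into 3 patterns. *Lect2* was 10.5-fold lower in ASNase-treated *Atf4*-/- livers than in PBS-treated ones, and it was the only 1 of the 8 genes called in any of the 7 comparisons made. *Axin2*, *Rnf43*, *Lgr5* and *Tbx3* each had their lowest level in that same group, but with intervals that overlapped those of every other group. *Nkd1* and *Rhbg* were lowest in the *Gcn2*-/- livers within each treatment, again with overlapping intervals, and *Znrf3* stayed within a 1.26-fold range over the 6 groups.

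*Lect2* (ENSMUSG00000021539, GRCm38 chr13:56542464-56548502, minus strand) encodes a hepatokine, a protein that hepatocytes secrete into blood, and is a known beta-catenin target in liver. The bases just before its RefSeq start (GRCm38.p6) are shown because this was the gene that moved. They hold the core letters of the TCF/LEF recognition sequence, CTTTGA or on the other strand TCAAAG, printed in capitals from 31 to 26 bases upstream of the start (chr13:56548539-56548599, minus strand).
Lect2: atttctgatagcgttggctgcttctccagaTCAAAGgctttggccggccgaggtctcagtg
RefSeq windows were found for 4 of the 8 genes, *Axin2*, *Nkd1*, *Rnf43* and *Lect2*, and in the 250 bases upstream of the start only the *Lect2* window held these letters. The letters are common, present in 4544 of 32851 such windows (13.8%), so the match is a description and not a binding site. The core of the amino acid response element bound by ATF4, TGATGNAA or TTNCATCA, had no match in any of these windows and was present in 1134 of all 32851 (3.45%).

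The level of *Lect2* under PBS was 139 FPKM (78.9 to 199) in WT, 102 (59.6 to 144) in *Gcn2*-/- and 105 (57.1 to 153) in *Atf4*-/- livers. Under ASNase it was 80.8 FPKM (47.9 to 114) in WT, 63.9 (36.7 to 91.2) in *Gcn2*-/- and 9.98 (4.81 to 15.1) in *Atf4*-/- livers. The interval of the *Atf4*-/- ASNase group lay below those of all 5 other groups, which overlapped one another in every pair. Within *Atf4*-/- mice *Lect2* fell by 3.39 ± 0.50 (log2 difference ± combined error) with ASNase, a 10.5-fold lower level, and against WT ASNase it was lower by 8.03-fold (log2 difference -3.01 ± 0.47). Both comparisons use the same *Atf4*-/- ASNase value. The log2 differences between ASNase and PBS were -0.78 ± 0.43 in WT and -0.67 ± 0.43 in *Gcn2*-/- mice, neither past 2 errors. The response in *Atf4*-/- mice differed from that in WT by -2.61 ± 0.65 and from that in *Gcn2*-/- mice by -2.72 ± 0.65 on the log2 scale, both past 2 errors, whereas the *Gcn2*-/- and WT responses differed by 0.11 ± 0.60. Few genes were lower by as much. In the *Atf4*-/- response, 125 of 9485 genes over the FPKM limit (1.32%) had a difference at or below that of *Lect2*. For *Atf4*-/- against WT under ASNase it was 253 of 9577 (2.64%). The smaller *Lect2* difference in the WT response also ranked low, with 166 of 9084 genes (1.83%) at or below it. In the *Gcn2*-/- response it was 1297 of 9218 (14.1%).

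**Figure D1:**
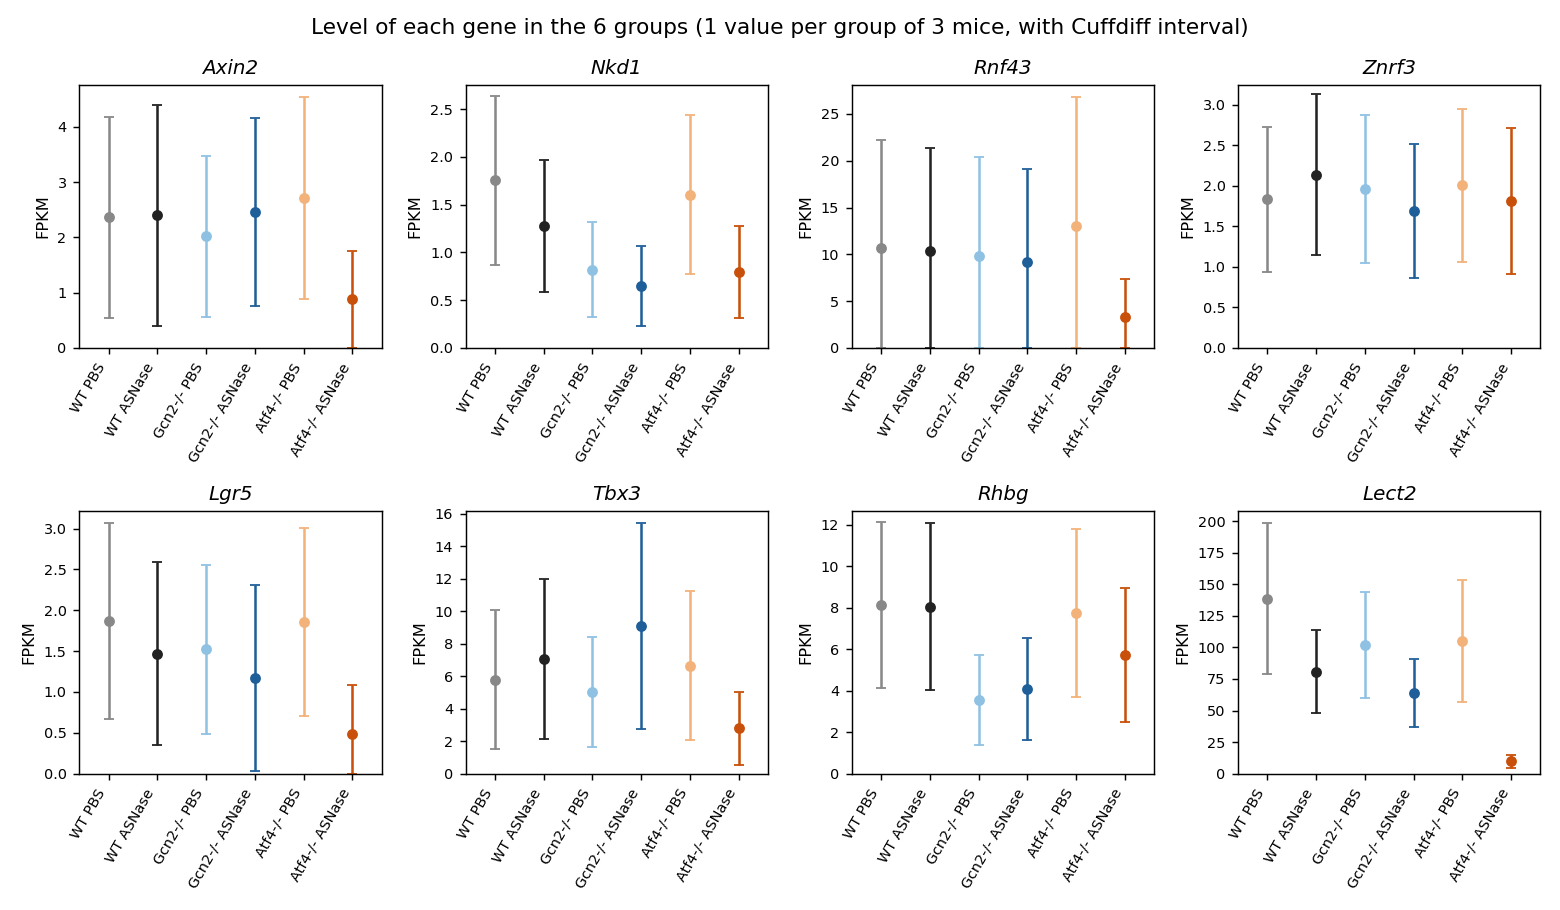
FPKM of each of the 8 genes (vertical axes, linear, each panel on its own scale) in the 6 groups, where a point is Cuffdiff's value for the 3 mice of a group and a bar its interval. The bar of *Lect2* in *Atf4*-/- ASNase, 4.81 to 15.1 FPKM, lies clear of the other 5, while in every other panel all bars overlap.

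Of the negative feedback genes, *Axin2*, *Nkd1* and *Znrf3* were under 3 FPKM in every group, while *Rnf43* was over 3 FPKM in every group. *Axin2* (ENSMUSG00000000142, chr11:108920349-108950783, plus strand), which encodes a scaffold of the complex that degrades beta-catenin and is a standard readout of the pathway, had 2.36 FPKM (0.547 to 4.18) in WT PBS, 2.02 (0.567 to 3.48) in *Gcn2*-/- PBS and 2.71 (0.885 to 4.53) in *Atf4*-/- PBS. With ASNase it had 2.40 FPKM (0.402 to 4.40) in WT, 2.46 (0.753 to 4.16) in *Gcn2*-/- and 0.881 (0.00345 to 1.76) in *Atf4*-/- livers. The *Atf4*-/- ASNase value was the low one of 6, at a log2 difference of -1.52 ± 0.80 from PBS, but its interval still overlapped the others. An antisense gene, *Gm11670*, shares 209 exon bases with *Axin2* and had at most 0.0800 FPKM in any group.

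*Nkd1* (ENSMUSG00000031661, chr8:88521354-88594884, plus strand), whose product binds Dishevelled and dampens Wnt signalling, had 1.75 FPKM (0.873 to 2.63) in WT PBS, 0.819 (0.320 to 1.32) in *Gcn2*-/- PBS and 1.61 (0.774 to 2.44) in *Atf4*-/- PBS. With ASNase the levels were 1.28 (0.588 to 1.97), 0.652 (0.233 to 1.07) and 0.792 FPKM (0.309 to 1.27) in the same order of strains. Both *Gcn2*-/- values were thus under those of WT, by log2 differences of -1.01 ± 0.52 under PBS and -0.87 ± 0.54 under ASNase, and the *Atf4*-/- value under ASNase was close to them. No pair of groups had separate intervals.

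*Rnf43* (ENSMUSG00000034177, chr11:87662722-87735539, plus strand) encodes 1 of the ligases that clear Frizzled from the membrane. Under PBS its level was 10.7 FPKM (0 to 22.2) in WT, 9.78 (0 to 20.4) in *Gcn2*-/- and 13.0 (0 to 26.8) in *Atf4*-/- livers, and under ASNase it was 10.4 (0 to 21.3), 9.18 (0 to 19.1) and 3.31 (0 to 7.37). The last value was 3.93-fold under the highest, yet all 6 intervals reached down to 0, so that no difference in *Rnf43* could be told from its error (log2 difference -1.94 ± 1.14 in *Atf4*-/- mice). The partner ligase gene *Znrf3* (ENSMUSG00000041961, chr11:5276324-5444847, minus strand) had 1.84 FPKM (0.943 to 2.73), 1.96 (1.04 to 2.87) and 2.0 (1.06 to 2.95) under PBS in WT, *Gcn2*-/- and *Atf4*-/- livers and 2.14 (1.15 to 3.13), 1.69 (0.868 to 2.52) and 1.81 (0.907 to 2.71) under ASNase. In *Atf4*-/- mice its ASNase to PBS difference was -0.14 ± 0.47 on the log2 scale, the nearest to 0 of the 8 genes, with an interval of 2 errors that still allowed changes of 0.94 to either side.

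*Lgr5* (ENSMUSG00000020140, chr10:115450311-115587780, minus strand) encodes an R-spondin receptor that marks hepatocytes nearest the central vein. It had 1.87 FPKM (0.671 to 3.06) in WT PBS, 1.52 (0.490 to 2.55) in *Gcn2*-/- PBS and 1.86 (0.708 to 3.00) in *Atf4*-/- PBS, against 1.47 (0.349 to 2.59), 1.17 (0.0281 to 2.31) and 0.492 (0 to 1.09) with ASNase. The *Atf4*-/- ASNase value was again lowest. Its log2 difference from PBS, -1.72 ± 0.84, was just past 2 errors (1.68), but the intervals overlapped and both values were under the limit of 3 FPKM.

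*Tbx3* (ENSMUSG00000018604, chr5:119670669-119684724, plus strand), a T-box transcription factor gene induced by beta-catenin in liver, had 5.79 FPKM (1.52 to 10.1) in WT PBS, 5.04 (1.64 to 8.44) in *Gcn2*-/- PBS and 6.64 (2.06 to 11.2) in *Atf4*-/- PBS. With ASNase it had 7.04 FPKM (2.12 to 12.0) in WT, 9.10 (2.76 to 15.4) in *Gcn2*-/- and 2.79 (0.526 to 5.05) in *Atf4*-/- livers, so the highest and the lowest of the 6 values were those of both deletion strains under the drug. Its log2 differences between ASNase and PBS were 0.84 ± 0.69 in *Gcn2*-/- and -1.22 ± 0.75 in *Atf4*-/- mice. Neither passed 2 errors on its own, while the difference between these responses, -2.06 ± 1.02, lay just past 2 errors (2.03). The antisense gene *Tbx3os1* shares 115 exon bases with *Tbx3* and had 0 to 0.676 FPKM.

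*Rhbg* (ENSMUSG00000001417, chr3:88242874-88254709, minus strand) encodes an ammonium transporter of pericentral hepatocytes, the cells that take up ammonia for glutamine synthesis. Its levels were 8.14 FPKM (4.14 to 12.1) in WT PBS, 3.53 (1.36 to 5.71) in *Gcn2*-/- PBS and 7.74 (3.69 to 11.8) in *Atf4*-/- PBS, and under ASNase 8.05 (4.05 to 12.1), 4.09 (1.63 to 6.54) and 5.73 (2.49 to 8.97). The *Gcn2*-/- values were the lowest with either treatment, at log2 differences from WT of -1.18 ± 0.56 under PBS, past 2 errors (1.11), and -0.96 ± 0.55 under ASNase, within 2 errors. The intervals overlapped in both. Another protein-coding gene, *Gm38392*, shares 1190 exon bases with *Rhbg*, and no value was found for it by its identifier. How reads of the shared bases were counted is not known, and the *Rhbg* values are uncertain to that extent.

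Counted together, 1 of the 8 genes was called in the *Atf4*-/- response to ASNase, where 7.37% of all genes over the FPKM limit were called, 4.63% as lower and 2.74% as higher. Only *Tbx3*, *Rhbg*, *Rnf43* and *Lect2* passed the limit of 3 FPKM in each comparison, so the other 4 genes could not be called. The intervals were separate for 1 of 8 in this response, against 4.63% of all genes with a value. All 8 genes were lower with ASNase than with PBS in *Atf4*-/- mice, with a median log2 difference of -1.37, where the median over all genes past the limit was 0.08 and 46.2% of them were lower. In WT mice none of the 8 was called (0.881% of all genes) or had separate intervals (0.73%), 5 were lower and 3 higher, and the median was -0.03. In *Gcn2*-/- mice none was called (3.69% of all genes, 2.13% as lower and 1.56% as higher) or had separate intervals (2.63%), with 5 lower, 3 higher and a median of -0.15. With 8 genes, of which 4 could be called, a share of 1 called gene is not read as different from the background.

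Between strains under PBS, 0 of the 8 genes were called in *Gcn2*-/- against WT livers (1.04% of all genes) and 0 had separate intervals (0.878%), with 7 lower, 1 higher and a median of -0.25. In *Atf4*-/- against WT livers under PBS 0 were called (1.12%) and 0 had separate intervals (0.924%), with 4 lower and 4 higher. Under ASNase, *Gcn2*-/- against WT gave 0 called genes (4.41%) and 0 with separate intervals (3.32%), 6 lower and 2 higher, with a median of -0.32. *Atf4*-/- against WT gave 1 called gene, *Lect2* (8.25%), which was also the 1 gene with separate intervals (5.36%), and all 8 were lower, with a median of -1.33. The last comparison and the *Atf4*-/- response share the *Atf4*-/- ASNase values, so their like direction is not independent.

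**Figure D2:**
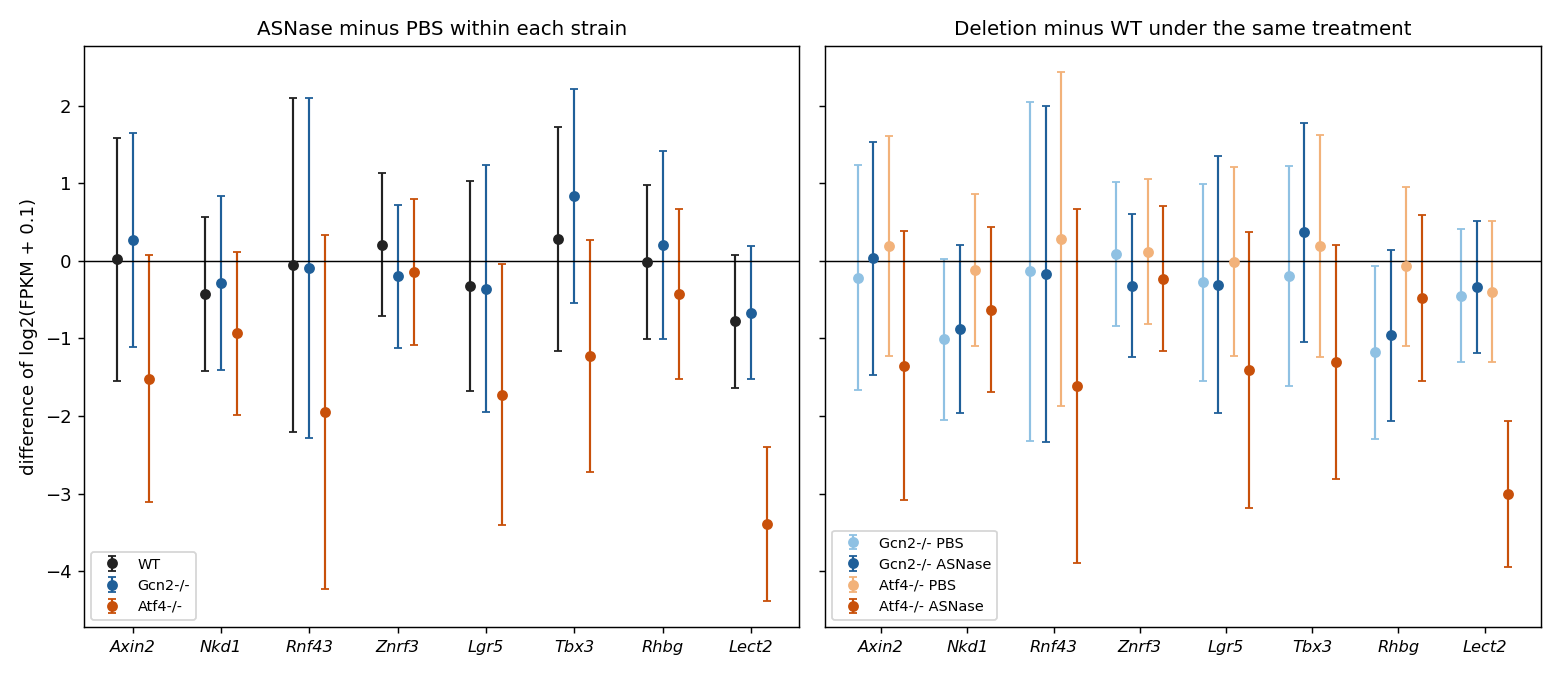
Differences of log2(FPKM + 0.1) for the 8 genes, ASNase minus PBS within each strain on the left and deletion strain minus WT under the same treatment on the right, where bars are 2 combined errors and the line marks no difference. *Lect2* stands clear of 0 in *Atf4*-/- mice at -3.39 and against WT under ASNase at -3.01, and *Lgr5* (-1.72) and *Rhbg* (-1.18) just clear it once each.

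The profiles of the genes over the 6 groups were compared as a description, with only 6 points that share the same livers. Pearson's r on the log2 scale was 0.988 for *Lgr5* with *Lect2*, 0.979 for *Axin2* with *Rnf43* and 0.975 for *Lgr5* with *Rnf43*, pairs that all have their lowest point in *Atf4*-/- ASNase. For *Rhbg* with *Nkd1* it was 0.864. The median over the 28 pairs was 0.53 and the lowest value 0.033, for *Tbx3* with *Rhbg*. Of 10171 other genes, 23 (0.226%) had a profile as close to *Lect2* as that of *Lgr5*, 180 (1.77%) as close as that of *Rnf43* and 617 (6.07%) as close as that of *Axin2*. The share was 22.2% for *Tbx3*, 29.9% for *Nkd1*, 36.3% for *Znrf3* and 41.3% for *Rhbg*, so these were not close to *Lect2*. The genes closest to *Lect2* were *Alad* (r = 0.997), which encodes an enzyme of heme synthesis, *Hes6* (0.996), a gene of the HES transcription factor family, and *Ncald* (0.996), which encodes a calcium sensor. *Hes6* went from 53.6 FPKM under PBS to 6.66 under ASNase in *Atf4*-/- livers, and *Alad* from 83.9 to 29.7.

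Glutamine synthetase, encoded by *Glul*, is the enzyme most used to mark pericentral hepatocytes. Under PBS its level was 452 FPKM (0 to 921) in WT, 233 (27.1 to 440) in *Gcn2*-/- and 639 (0 to 1378) in *Atf4*-/- livers, and under ASNase it was 454 (0 to 950), 370 (0 to 814) and 140 (13.4 to 266). It too was lowest in *Atf4*-/- ASNase, at -2.19 ± 1.06 from PBS on the log2 scale, but its intervals overlapped in every comparison and so gave no call.

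Among 20 pericentral hepatocyte genes outside the set of 8, *Glul* included, 19 passed the FPKM limit in the *Atf4*-/- response. Over all genes past this limit, 4.63% were called as lower and 2.74% as higher, with a median log2 difference of 0.08. Of the 19 pericentral genes, 6 fell and 0 rose, with a median log2 difference of -1.98. The largest of these falls were those of *Rgn*, which encodes regucalcin (703 to 18.2 FPKM, log2 difference -5.26 ± 0.55), *Akr1c6*, a hydroxysteroid dehydrogenase gene (1005 to 49.4 FPKM, -4.34 ± 0.58), *Cyp1a2*, a cytochrome P450 gene (256 to 23.8 FPKM, -3.42 ± 0.47), and *Gulo*, which encodes the last enzyme of vitamin C synthesis (235 to 25.9 FPKM, -3.18 ± 0.48). Periportal genes, which mark the opposite end of the lobule, also included falls: of 19 that passed, 5 fell and 0 rose, with a median of -1.16, among them *Cyp2f2* (506 to 29.2 FPKM, -4.11 ± 0.57) and *Pigr* (373 to 65.9 FPKM, -2.50 ± 0.61). The fall of *Lect2* therefore stood beside lower RNA of hepatocyte genes of both zones. In *Gcn2*-/- mice 1 pericentral gene fell with ASNase (*Cyp1a2*, 159 to 40.1 FPKM, -1.99 ± 0.49), 1 rose (*Slc13a3*, a dicarboxylate transporter gene, 3.85 to 13.1 FPKM, 1.74 ± 0.50), and 2 periportal genes fell (*Igfbp2*, 654 to 135 FPKM, -2.27 ± 0.55, and *Agxt*, 416 to 94.3 FPKM, -2.14 ± 0.50), while in WT mice 0 genes of either list were called. Over all genes past the limit, 2.13% were called as lower and 1.56% as higher in *Gcn2*-/- mice, and 0.881% in either direction in WT mice. The few calls of these lists in *Gcn2*-/- mice are not read as different from that background. In bulk liver, fewer cells of a type and less RNA per cell cannot be told apart.

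**Figure D3:**
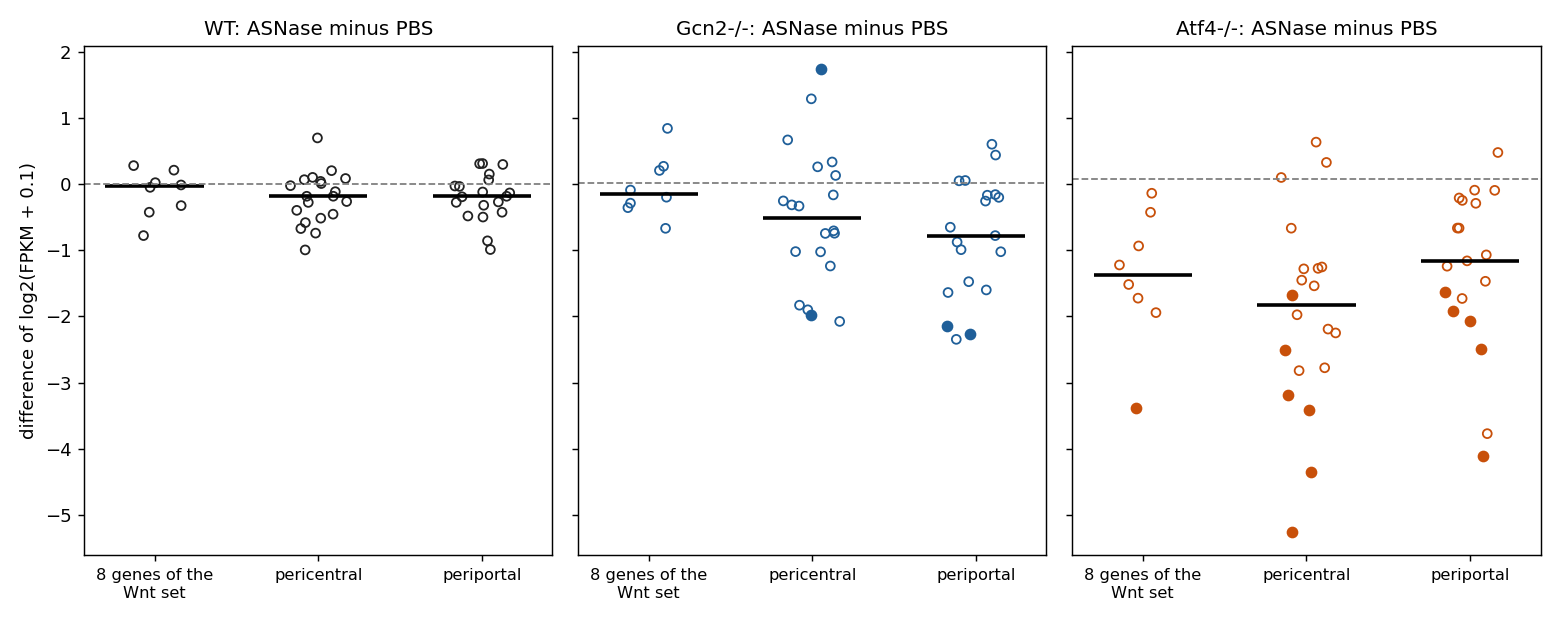
Difference of log2(FPKM + 0.1) between ASNase and PBS for the 8 genes, the 20 pericentral and the 19 periportal genes in each strain, where a filled point is a called gene, the black line the median of the points drawn and the dashed line the median of all genes past the FPKM limit. The points of all 3 lists lie mostly below the dashed line in *Atf4*-/- mice, with 1 called member (*Lect2*, -3.39), 6 called pericentral and 5 called periportal genes.

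The upstream parts of the pathway gave no calls. Of 17 genes for Wnt and R-spondin ligands and their secretion, 17 for receptors and co-receptors, 14 for the intracellular beta-catenin machinery and 8 for TCF/LEF factors and cofactors, 0 were called in any of the 7 comparisons. Many of them could not be called, since the FPKM limit was passed by at most 4 of the ligand genes, 7 of the receptor genes, 11 of the machinery genes and 5 of the factor genes in a comparison. Over all genes past the limit, 0.881% to 8.25% were called, depending on the comparison, so 0 calls among so few genes is not read as different. Intervals were separate for *Wnt2* in 1 comparison, given below, and for the Frizzled receptor gene *Fzd4* in another, at 2.04 FPKM (1.02 to 3.07) in *Atf4*-/- ASNase against 5.85 (3.23 to 8.47) in WT ASNase livers. *Ctnnb1*, which encodes beta-catenin, had 81.9 FPKM (31.3 to 133) under PBS and 49.2 (21.8 to 76.7) under ASNase in *Atf4*-/- livers. Of 16 further Wnt inhibitor genes, only 2 passed the FPKM limit in each comparison. Only *Notum*, which encodes an enzyme that removes the lipid from Wnt proteins, was called, and like *Lect2* it fell in *Atf4*-/- mice. *Notum* had 28.2 FPKM (13.1 to 43.2) under PBS and 3.46 (0.727 to 6.19) under ASNase in *Atf4*-/- livers, a log2 difference of -2.99 ± 0.67, against 26.0 and 22.5 FPKM in WT and 16.8 and 8.01 FPKM in *Gcn2*-/- livers. Of 8 Wnt target genes used outside the liver zones, 4 passed the limit in the *Atf4*-/- response and 2 in the *Gcn2*-/- response. Among them *Ccnd1*, the cyclin D1 gene, fell in *Atf4*-/- mice from 20.1 to 1.13 FPKM (-4.04 ± 0.74). *Myc*, a growth-promoting transcription factor gene, rose there from 1.75 to 13.8 FPKM (2.91 ± 0.59). In *Gcn2*-/- mice *Jun*, an AP-1 subunit gene, rose from 5.67 to 21.4 FPKM (1.90 ± 0.48). The called genes of these lists did not share a direction. Over all genes past the limit, 7.37% were called in the *Atf4*-/- response and 3.69% in the *Gcn2*-/- response. With so few genes that could be called, these calls are not read as different from that background.

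The lower *Rhbg* and *Nkd1* values of *Gcn2*-/- livers came with lower values of *Wnt2*, *Wnt9b* and *Rspo3* under both treatments. Endothelial markers were lower under PBS, while under ASNase they went both ways. *Wnt2*, a ligand made by liver endothelium, had 2.74 FPKM (1.2 to 4.28) in WT PBS and 0.574 (0.117 to 1.03) in *Gcn2*-/- PBS, with both values under the FPKM limit but separate intervals, as 1 of the 17 ligand and secretion genes. *Wnt9b*, the central vein ligand, had 0.415 FPKM (0.131 to 0.699) and 0.0955 (0.00493 to 0.186), and *Rspo3* 2.53 (1.18 to 3.88) and 1.81 (0.735 to 2.88), in both cases with overlapping intervals. The summed level of 9 endothelial markers was 113 FPKM under PBS and 98.7 under ASNase in WT, 57.4 and 63.4 in *Gcn2*-/- and 125 and 90.0 in *Atf4*-/- livers, and all 9 were lower in *Gcn2*-/- PBS than in WT PBS, with 0 called. Under ASNase 7 of the 9 were lower and 2 higher in *Gcn2*-/- than in WT livers, the higher ones being *Lyve1* (9.0 against 6.86 FPKM) and *Thbd* (3.08 against 2.30 FPKM). Under ASNase *Wnt2* had 0.962 against 1.97 FPKM, *Wnt9b* 0.178 against 0.380 and *Rspo3* 1.72 against 2.47, with overlapping intervals. Not all ligand genes were lower. *Wnt5b* had 10.3 FPKM (4.49 to 16.2) in *Gcn2*-/- ASNase against 3.46 (0.777 to 6.14) in WT ASNase. Under PBS it had 2.92 against 2.54 FPKM, and its intervals overlapped with either treatment. The part of the ligands and of the endothelium in the *Rhbg* and *Nkd1* values was not tested. Of the pericentral genes, 18 of 19 were lower in *Gcn2*-/- PBS than in WT PBS with a median of -0.51 and 0 called, where 39.9% of all genes past the limit were lower and their median was 0.06. Of the periportal genes 6 of 19 were lower, with a median of 0.17 and 0 called, a share near that of all genes.

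**Figure D4:**
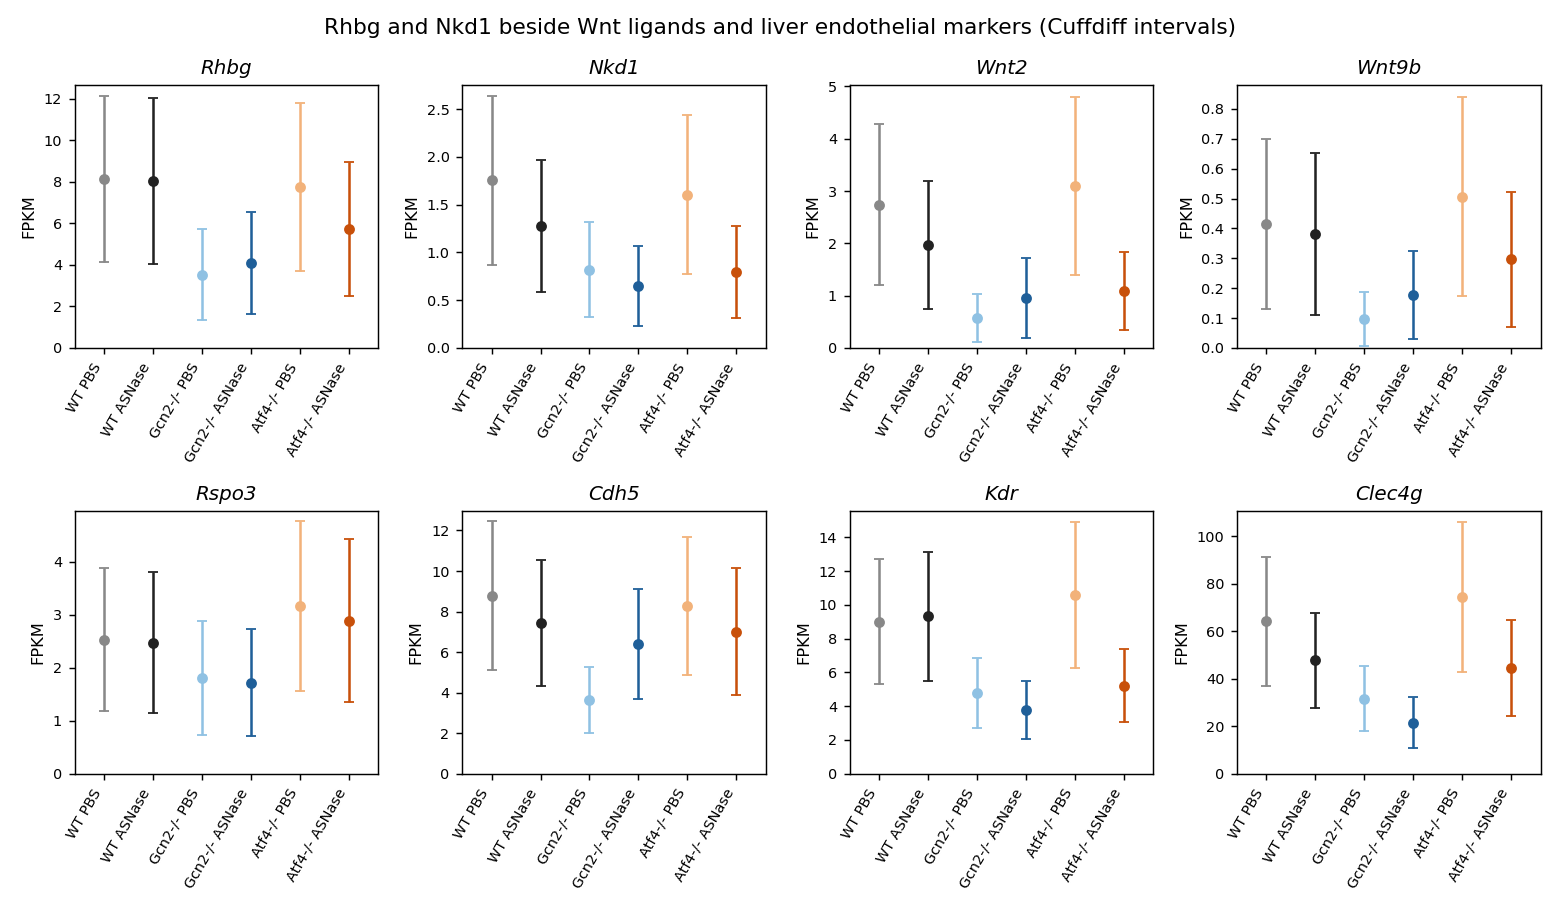
FPKM (linear axes, each panel on its own scale) of *Rhbg* and *Nkd1* beside 3 Wnt pathway ligands and 3 endothelial markers in the 6 groups, with points for Cuffdiff's group values and bars for its intervals. All of these genes have lower values in *Gcn2*-/- PBS than in WT PBS, with *Wnt2* at 0.574 against 2.74 FPKM and *Rhbg* at 3.53 against 8.14 FPKM.

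Markers of the tissue bear on these values. The 7 hepatocyte markers with an estimate in all groups summed to between 9893 and 16978 FPKM, with 11549 in *Atf4*-/- ASNase and 14752 in *Atf4*-/- PBS. *Ahsg* made up much of these sums, with 6669 FPKM (0 to 13745) and 7359 (0 to 15659), and the single markers went both ways between those groups: 5 of 7 were lower with ASNase, such as *Ttr* (3541 to 854 FPKM), and 2 higher, such as *Tat* (952 to 2013 FPKM), with 0 called. Markers of stellate cells (7 genes, 103 to 172 FPKM), Kupffer cells (6 genes, 118 to 251 FPKM) and cholangiocytes (6 genes, 20.1 to 39.9 FPKM, with *Cftr* under 0.1 FPKM in all groups) were present in every group, but some of them were called in the comparison in which *Lect2* fell. In the *Atf4*-/- response 6 stellate cell markers were lower and 1 higher, with a median log2 difference of -1.31. The higher 1 was *Des* (2.90 to 7.91 FPKM). Like the skeletal muscle markers below, *Des* was highest in WT livers, at 14.5 FPKM under PBS and 26.8 under ASNase. For Kupffer cells 5 were lower and 1 higher (median -1.17), and for cholangiocytes 4 were lower and 2 higher (median -0.11). Over all genes past the FPKM limit 46.2% were lower, and 7.37% were called, 4.63% as lower and 2.74% as higher. The limit was passed by 6 stellate cell, 6 Kupffer cell and 1 cholangiocyte marker. The few calls among them are not read as different from that background. In *Atf4*-/- mice the stellate cell marker *Colec11* fell with ASNase from 20.9 FPKM (12.2 to 29.6) to 4.68 (2.1 to 7.26) and the Kupffer cell marker *Cd5l* from 91.6 (49.6 to 134) to 31.3 (16.9 to 45.7), while another Kupffer cell marker, *Marco*, a scavenger receptor gene, rose from 9.22 (4.60 to 13.8) to 67.3 (28.8 to 106). *Marco* also rose in *Gcn2*-/- mice, from 8.32 to 118 FPKM, where *Lect2* was not called and 3.69% of all genes past the limit were. The part of these cell types in the *Lect2* values was not tested. The 8 skeletal muscle markers summed to 807 FPKM in WT PBS and 1158 in WT ASNase, against 5.78 and 8.85 in *Gcn2*-/- and 65.0 and 143 in *Atf4*-/- livers, a difference that accompanies every comparison with WT above. The *Atf4*-/- groups differed in it as well, with 7 of the 8 markers higher under ASNase and 0 called. Its part in any of the comparisons was not tested. The RNA of the deleted genes did not vanish in their own strains: *Eif2ak4*, the gene for GCN2, had 2.31 and 2.96 FPKM in *Gcn2*-/- livers against 3.04 and 2.39 in WT, and *Atf4* had 32.3 and 29.3 FPKM in *Atf4*-/- livers against 50.4 and 63.1 in WT. A value over a whole gene does not show whether a part of the transcript is missing, so these levels do not check the genotype labels. The study reported read density plots in which an exon of *Gcn2* and the *Atf4* gene were absent in their strains. It also measured *Atf4* by RT-qPCR and genotyped the mice by PCR, and none of these data were used here.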

How the data were processed

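Liver poly-A RNA libraries of 18 mice (6 groups of 3, by the sample labels) were sequenced as single-end reads. The authors aligned them to mm10 with TopHat and ran Cuffdiff, and the deposited FPKM table gives for each group 1 value, a lower bound, an upper bound and a status. All value columns were matched to a group, with 0 left over. The table gives no read counts, and read totals per library, which the study lists, were not used here. The precision of a value was taken from its interval. Of the values 160 were not of status OK, and none of the 48 values of the 8 genes was among them.

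The genes, gene lists and call rule were chosen with earlier results of these data known. Groups were compared on log2(FPKM + 0.1) with python 3.11.15, numpy 2.4.6 and pandas 2.3.3. Linear models were not possible with 1 value per group. Named genes were the 8 genes, *Glul*, the deleted genes, up to 4 called genes per list by size of difference, and the 3 genes with the highest r with a called member. *Ctnnb1*, *Slc13a3*, *Wnt2*, *Wnt5b*, *Wnt9b*, *Rspo3*, *Fzd4*, the single cell type markers, and *Cyp1a2* in the *Gcn2*-/- response, were named after their values were seen. The lists held 20 pericentral and 20 periportal names (*Etnppl* was not matched), and markers of 6 cell types (*Adgre1* is in the table under its older name *Emr1*, and *Fgb* lacked an estimate in some groups). Gene positions are from the GRCm38 annotation, which matched *Rhbg* by symbol and the other 7 genes by identifier. Pseudocounts of 1 and 0.01, other FPKM and fold limits, combined errors and a median-ratio scaling were tried as alternatives.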

Additional observations from a re-analysis of the deposited data

Results flagged for a closer look

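The response of *Lect2* to ASNase differed between strains: the log2 difference between ASNase and PBS was lower by 2.61 in *Atf4*-/- than in WT mice (difference of responses -2.61 ± 0.65) and lower by 2.72 than in *Gcn2*-/- mice (-2.72 ± 0.65). For *Tbx3* the *Atf4*-/- response was below the *Gcn2*-/- response by a log2 difference of -2.06 ± 1.02, with 2 errors at 2.03. These 3 of 24 differences of responses were past 2 combined errors of Cuffdiff, and none was tested over mice.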

How the results depend on the processing

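No paired analysis was possible because the table holds 1 value per group, and for the same reason leaving out a mouse was not run. The number of the 8 genes called was the same in all 7 comparisons under every alternative (pseudocounts of 1 and 0.01, no FPKM limit, a limit of 1 FPKM, a log2 limit of 1, combined errors, median-ratio scaling). The other pseudocounts and limits still required separate intervals, which only *Lect2* had, so they could not have added a call. With combined errors in place of separate intervals, 2 genes (*Lgr5* and *Lect2*) in place of 1 differed in the *Atf4*-/- response to ASNase, and 1 (*Rhbg*) in place of 0 between *Gcn2*-/- and WT livers under PBS. Combined errors kept the other limits, so *Lgr5*, under the FPKM limit, and *Rhbg*, under the log2 limit, could not be called. The 56 log2 differences of the 8 genes gave 168 values under another pseudocount or scaling, all within their own error of the value reported, and 1 of them, for *Axin2* in WT mice (0.02), changed sign. Differences of responses past 2 errors numbered 0, 1 and 2 under both other pseudocounts and the scaling as well, alternatives chosen after seeing the data. Without the FPKM limit the genes called among all genes rose from 80 to 124 in the WT response, from 93 to 144 in *Gcn2*-/- and from 101 to 153 in *Atf4*-/- livers against WT under PBS. Wide intervals limit what can be called, above all for *Rnf43*, whose 6 lower bounds were at 0 although it was over 3 FPKM in every group.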
